A study of Mus musculus with 6 samples.

Results

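Retinoid transport and metabolism in mouse liver was followed through 9 genes chosen by function: Rbp4 (gene ID 19662), Ttr (22139), Bco1 (63857), Rdh10 (98711), Rdh16 (19683), Dhrs3 (20148), Aldh1a1 (11668), Cyp26a1 (13082) and Cyp26b1 (232174). All 9 were found by symbol in the deposited RNA-seq table of 17441 genes, and all 9 passed the filter on low counts. The livers were 3 labelled wild type (WT) and 3 labelled as a tamoxifen-inducible knockout of NEK7, a kinase of mitosis and of the NLRP3 inflammasome, in the whole body (iKO). Tissue from both groups was taken 10 days after tamoxifen, so the agent is common to WT and iKO. The series title speaks of acetaminophen injury and the cell cycle, while tamoxifen is the treatment in the sample labels. Strain, age, sex, the Cre driver, the targeted allele and the hour of collection are not given in the sources used here. Whether the samples of a group are separate animals is not stated either. The p-values thus set the group difference against the spread between these samples, part of which may be technical.

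The liver is the main store of vitamin A in the body. Retinol arrives there as retinyl ester, is kept as ester in stellate cells, and leaves hepatocytes bound to the plasma carrier RBP4, which circulates in a complex with transthyretin, the product of Ttr. Inside cells retinol is oxidised first to retinaldehyde and then to retinoic acid, the ligand of the RAR receptors, and CYP26 enzymes remove retinoic acid by hydroxylation. Cyp26a1, Rarb, Lrat and Dhrs3 are textbook targets of retinoic acid itself, so that clearance and storage respond to its level.

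Library totals ran from 18139507 to 19911983 expected counts. Levels below are CPM, counts scaled to a common library size with TMM normalization, unless TPM is named, and they are given in the order of livers 1, 2 and 3 of each group. Values with ± are the mean and SD of the 3 livers of a group, WT first. A gene is called when edgeR's quasi-likelihood test gave an adjusted p under 0.05 over all 13160 tested genes. Nek7 itself gave no separation of the groups, with 36.3 to 55.5 CPM in the WT libraries against 31.0 to 50.2 CPM in the iKO ones (adjusted p = 0.541). A gene total would not show the loss of a few exons, so iKO is used here as a label. Y-linked Ddx3y was at 0 counts in WT 2 and WT 3 and between 28.8 and 43.4 CPM in the other 4 libraries, a difference of apparent sex that sets WT 1 apart as another animal than WT 2 and WT 3. Clock output gene Dbp ran from 0.797 to 2.27 CPM in WT livers and from 99.8 to 144 CPM in iKO livers. Summed over 12 hepatocyte markers, none of them at 0 in any library, WT libraries held 117702 to 127454 CPM and iKO libraries 117885 to 138727 CPM. The part of time of day in the values below cannot be told apart from that of the label. Apparent sex overlaps with the label in part, and values with a term for Y-linked reads, which rest on WT 1 for the WT side, are given beside several results.

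None of the 9 retinoid genes was called by edgeR, 0 of 9 where 15.4% of all tested genes were. At an unadjusted p under 0.05 the count was 4 of 9 (Rbp4, Rdh10, Dhrs3 and Cyp26a1), and 33.1% of all genes passed that mark. The other tools and scalings run on all 6 livers called between 0 and 2 of them. DESeq2 called 1 of 9, Rbp4, beside 19.4% of all genes, and limma-voom 0 of 9 beside 14.5%. On log2(FPKM + 1) and on log2(FPKM + 0.1) limma called 1 of 9, Dhrs3, beside 10.3% of all genes in either case. Upper-quartile factors gave 2 of 9, Rdh10 and Dhrs3, beside 15.8%, and the replicate numbers as a block gave 1 of 9, Cyp26b1, beside 13.0%. CPM did not overlap between the groups for 4 of 9 (Rbp4, Rdh10, Dhrs3 and Cyp26b1), against 39.0% of all genes. In TPM the count was 3 of 9, without Cyp26b1, against 32.0%. The median log2 fold change of the 9 was -0.24, and that of all tested genes -0.024. With 9 genes, each of these counts lies within 2 genes of what the background share would give.

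**Figure D1:**
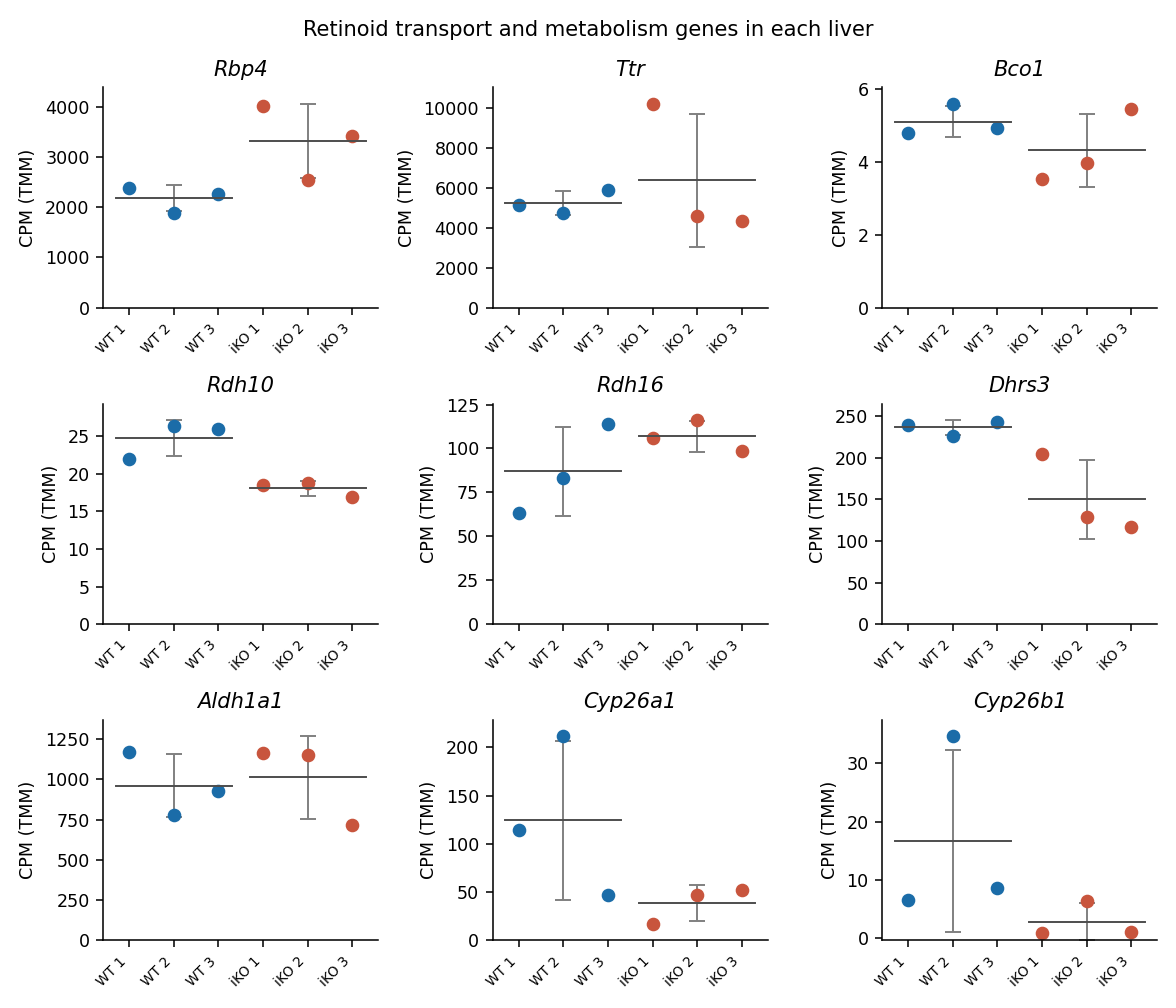
CPM of each of the 9 retinoid genes (vertical axis, linear) in the 6 livers (horizontal axis), WT in blue and iKO in red; horizontal lines are group means and bars are SD (n = 3 each). Rdh10 and Dhrs3 show WT points above all points labelled iKO, Rbp4 the reverse, and WT 2 stands out for Cyp26a1 and Cyp26b1.

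Rbp4, the plasma carrier of retinol, had 2384, 1895 and 2268 CPM in the WT livers against 4015, 2549 and 3423 CPM in the iKO livers. The lowest iKO liver lay above the highest WT liver. TPM is scaled to transcript length and, unlike the CPM here, carries no TMM normalization. In TPM the gap was narrower, with WT livers from 4366 to 4687 and iKO livers from 4801 to 6646. On the log2 scale the fold change of Rbp4 was 0.61 (SE 0.25, 95% interval 0.043 to 1.18, adjusted p = 0.126). Its partner Ttr had 5162, 4715 and 5905 CPM in the WT livers against 10218, 4586 and 4343 CPM in the iKO livers. The high iKO mean came from iKO 1, and the other 2 iKO livers lay below every WT liver. The fold change of Ttr was 0.28 on the log2 scale (SE 0.35, adjusted p = 0.608), and -0.23 without iKO 1.

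Both carriers have short transcripts, with effective lengths of 884 bases for Rbp4 and 766 bases for Ttr, in the lowest 5.33% and 3.68% of tested genes. Across genes, which are not independent replicates, log2 fold changes followed length (Spearman's rho -0.35 over 12995 genes). Each library's deviation from the mean of all 6 followed length most in WT 2 (rho 0.41) and iKO 1 (rho -0.41). After correction for transcript length, Rbp4 came to 0.20 (SE 0.20) and Ttr to -0.21 (SE 0.28) on the log2 scale. The TPM of Ttr over that of Rbp4 within a library, which no scaling of libraries can alter, was 2.50, 2.86 and 3.01 in the WT livers against 2.94, 2.08 and 1.46 in the iKO livers. Carrier transcripts thus stood in overlapping proportions in the groups, with the lowest ratio in iKO 3.

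Bco1, which cleaves beta-carotene to retinaldehyde, was scarce in every liver, with 4.78, 5.59 and 4.93 CPM in the WT livers against 3.53, 3.97 and 5.45 CPM in the iKO livers. The groups overlapped, since iKO 3 lay above 2 of the WT livers (log2 fold change -0.24, 95% interval -0.79 to 0.31, adjusted p = 0.529). Its expected counts were not whole in any library, which marks reads that RSEM divided between genes. Bco2, which cleaves carotenoids at another bond, was called. It fell from 30.9 ± 2.46 to 17.2 ± 5.09 CPM (log2 fold change -0.84, SE 0.21, adjusted p = 0.029), and its call ended with WT 1, WT 2, WT 3, iKO 2 or iKO 3 left out (adjusted p up to 0.134, without WT 2).

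Rdh10 is the dehydrogenase that makes most of the retinaldehyde for retinoic acid synthesis in the embryo. WT livers gave 22.0, 26.4 and 26.0 CPM, and iKO livers 18.5, 18.8 and 16.9 CPM. Every WT liver was above every iKO liver, with a CV of 9.64% within WT and 5.57% within iKO. The iKO livers held 72.8% of the WT level (95% interval 57.8% to 91.8%; log2 fold change -0.46, SE 0.15, adjusted p = 0.0649). With upper-quartile factors in place of TMM the gene was called (adjusted p = 0.045), while its log2 fold change was -0.29 once Y-linked reads entered as a term.

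Rdh16, a microsomal retinol dehydrogenase of hepatocytes, had 63.4, 83.2 and 114 CPM in the WT livers against 106, 116 and 98.3 CPM in the iKO livers. The groups overlapped, and the lowest value was that of WT 1, the WT liver with Y-linked reads (log2 fold change 0.30, SE 0.22, adjusted p = 0.378). With the term for Y-linked reads, where the contrast rests on WT 1, the log2 fold change was 0.75 (adjusted p = 0.241). Expected counts of Rdh16 were not whole in any library, and its close relatives Rdh1, Rdh9 and Rdh16f2 can share its reads, so the level is less certain. The TPM of Rdh10 over that of Rdh16 was 0.468, 0.416 and 0.312 in the WT livers against 0.230, 0.217 and 0.228 in the iKO livers, with no overlap. This ratio was chosen after its values were seen and was not tested. All other ratios that were computed within libraries overlapped between the groups.

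Dhrs3 encodes the reductase that turns retinaldehyde back into retinol and so works against Rdh10. WT livers gave 239.7, 227 and 244 CPM, a CV of 3.77%, and iKO livers 205, 129 and 117 CPM. All 3 iKO livers were lower than all WT livers, iKO 1 by the least. Their mean level was 63.5% of WT (95% interval 44.3% to 91.1%; log2 fold change -0.66, SE 0.23, adjusted p = 0.0822). Leaving out iKO 1 brought the gene to a call, 1 of 9 members beside 10.5% of all genes (log2 fold change -0.94, adjusted p = 0.0129), as did upper-quartile factors (adjusted p = 0.0491) and limma on log2(FPKM + 1) (adjusted p = 0.0179). With WT 1, WT 2, WT 3, iKO 2 or iKO 3 left out, Dhrs3 was not called (adjusted p from 0.148 to 0.254). The log2 fold change was -0.47 without iKO 3, and -0.67 with the term for Y-linked reads. In TPM, Dhrs3 had 196, 241 and 222 in the WT livers against 127, 115 and 111 in the iKO livers. On that scale iKO 1 lay close to the other 2. Dhrs3 over Rdh10 in TPM overlapped between the groups, at 9.57 to 12.3 in WT livers and 8.24 to 13.7 in iKO livers.

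Aldh1a1, which oxidises retinaldehyde to retinoic acid, was abundant and showed no separation of the groups. Levels were 1169, 781 and 931 CPM in the WT livers against 1166, 1153 and 718 CPM in the iKO livers (log2 fold change 0.076, 95% interval -0.53 to 0.68; adjusted p = 0.873). The direction was the other way with the term for Y-linked reads (-0.21) and on FPKM (-0.13). Its expected counts were not whole in any library, and the near-identical Aldh1a7 can share its reads. Aldh1a7 was measured at 157 ± 53.4 and 245 ± 34.7 CPM (adjusted p = 0.112). Aldh1a2, the form of the embryo and of mesothelium, ran from 0.106 to 0.311 CPM in WT livers and from 0.133 to 1.09 CPM in iKO livers, too low to be tested.

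**Figure D2:**
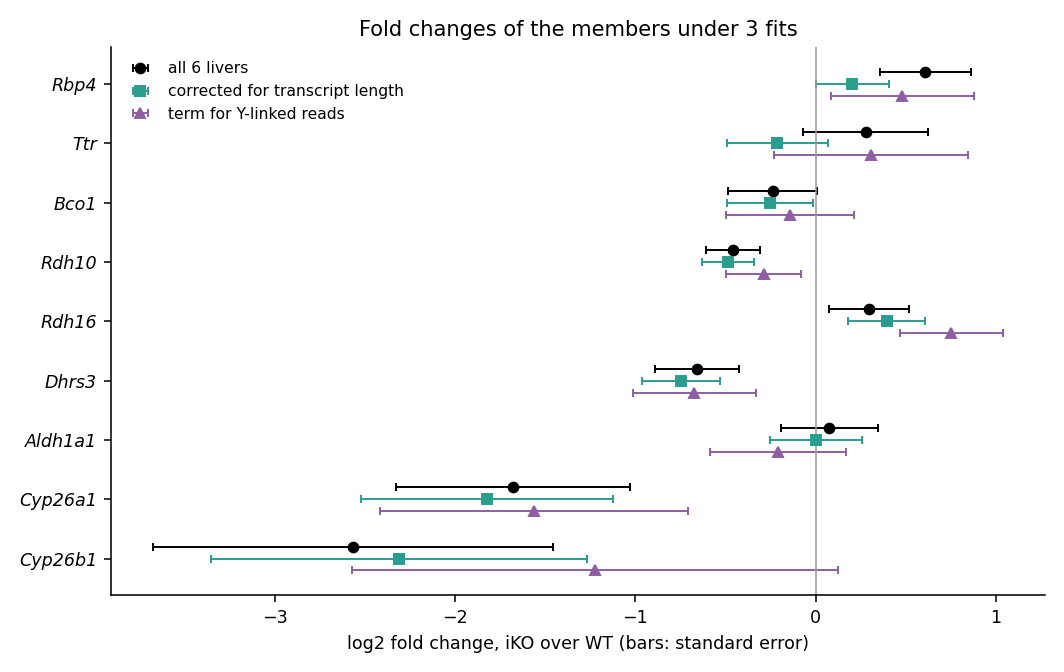
Log2 fold change of each retinoid gene, iKO over WT (horizontal axis), with standard errors as bars, in the fit of all 6 livers (circles), after correction for transcript length (squares) and with Y-linked reads as a term (triangles). Rbp4 goes from 0.61 to 0.20 with the length correction, and Cyp26b1 from -2.56 to -1.22 with the Y-linked term.

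Cyp26a1 and Cyp26b1, the hydroxylases that clear retinoic acid, had the log2 fold changes farthest from 0 of the 9 and the widest spread among WT livers. Cyp26a1, the form that liver expresses most, had 115, 211 and 47.5 CPM in the WT livers against 17.4, 47.1 and 52.1 CPM in the iKO livers. WT 3 lay among the iKO livers, so the groups overlapped. Its log2 fold change came to -1.68 (SE 0.65, 95% interval -3.27 to -0.090, adjusted p = 0.134), and -1.05 without WT 2. In whole liver, fewer cells of a type and less RNA per cell cannot be told apart, which bears on Cyp26b1, in liver a gene of stellate cells. It had 6.59, 34.7 and 8.65 CPM in the WT livers against 0.866, 6.43 and 1.04 CPM in the iKO livers. Only the narrow gap between WT 1 and iKO 2 kept the groups apart, and in TPM, at 2.09 and 2.21, these livers stood in the opposite order. Its log2 fold change was -2.56 (SE 1.11, 95% interval -5.43 to 0.30, adjusted p = 0.187), and -1.42 without WT 2. With the replicate numbers of the labels as a block Cyp26b1 was called (adjusted p = 0.00158), but the numbers were not shown to pair the livers. The CV of Cyp26b1 was 94.1% in WT livers and 114% in iKO livers, and that of Cyp26a1 66.1% and 48.3%; among iKO livers Ttr, at 52.1%, lay above Cyp26a1.

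The pair also varied from liver to liver within each group. Cyp26c1, another enzyme of the family, and Rarb, the receptor gene that retinoic acid induces, were set beside them after their values were seen. Cyp26c1 had 1.01, 1.73 and 0.677 CPM in the WT livers against 0.133, 0.429 and 0.622 CPM in the iKO livers, and did not overlap. Its expected counts were only 19, 39 and 14 in the WT livers and 2, 8 and 12 in the iKO livers. The lack of overlap rested on the gap between WT 3 and iKO 3, which was within counting error. For Rarb, WT livers gave 5.15, 13.0 and 6.96 CPM and iKO livers 1.47, 3.22 and 4.20 CPM, again with no overlap. For all 4 of these genes WT 2 was the highest liver and iKO 1 the lowest, the latter on 2 counts for Cyp26c1. Neither of these was called (adjusted p = 0.0999 for Cyp26c1 and 0.0514 for Rarb), though Rarb was called by DESeq2 (adjusted p = 0.0049), with RLE factors (0.0481), with the replicate block (0.0232) and without WT 1 (0.0328). Without WT 2 the log2 fold change of Rarb was -0.99 (adjusted p = 0.197), with the Y-linked term -0.78 (0.484) and in the 4 libraries with Y-linked reads -0.79 (0.546). WT 2 and iKO 1 are also the libraries at the ends of the trend over transcript length, and its part in this order was not tested. Effective lengths of the pair were 1651 bases for Cyp26a1 and 5120.0 bases for Cyp26b1, and the length correction left Cyp26a1 at -1.82 and Cyp26b1 at -2.31 on the log2 scale.

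**Figure D3:**
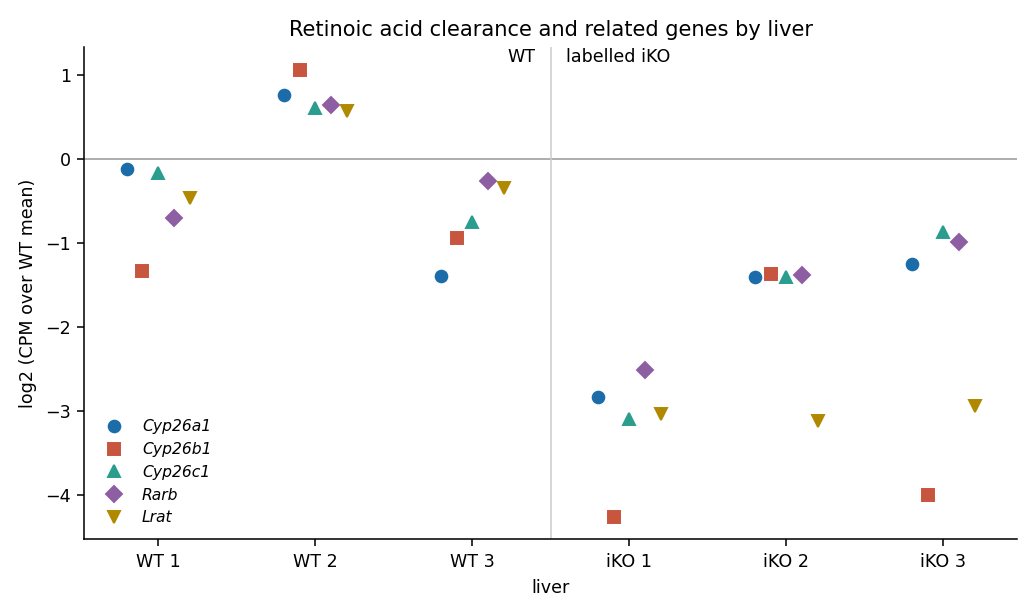
Level of Cyp26a1, Cyp26b1, Cyp26c1, Rarb and Lrat in each liver as log2 of CPM over the mean of the 3 WT livers (vertical axis), by liver (horizontal axis). All 5 genes are highest in WT 2; Lrat is low in all 3 iKO livers, between -3.12 and -2.94, while the other genes spread from liver to liver.

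Cyp26a1 and Rarb are known for retinoic acid response elements near their starts, direct repeats bound by RAR with RXR, so the windows around gene starts were searched for such repeats. RefSeq promoter windows (build GRCm38.p6, 250 bases before to 50 after a start; the expression files use mm9) were used for 7 of the 9 genes (all but Ttr and Rdh10), 11 windows in all. The motif searched was a direct repeat of the half-site AGGTCA, or its variants spelled AGTTCA, then GGGTCA, then GGTTCA, in any combination on either strand with 5, 2 or 1 bases between them. A repeat spaced by 5 bases stood in 0.0974% of all 32851 windows, and among the 9 genes in that of Cyp26a1. The same kind of repeat stood in a window of Rarb. A repeat spaced by 1 base stood in 0.222% of all windows and, among the 9, in that of Bco1. A repeat spaced by 2 bases stood in 0.268% of all windows and in 0 of the 11. Each of these windows is shown around its repeat, for the letters behind the matches, with the repeat in capitals and on the strand of the gene.
Cyp26a1: taaagaTGAACTTTGGGTGAACTaatttg
Rarb: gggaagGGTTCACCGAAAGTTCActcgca
Bco1: ttgggaacTGACCTTTGACCTaacacaca
The stretches lie at chr19:37697770-37697798 on the plus strand (Cyp26a1), chr14:16575507-16575535 on the minus strand (Rarb) and chr8:117095801-117095829 on the plus strand (Bco1). The repeat ran from 32 to 16 bases before the start of Cyp26a1, from 53 to 37 bases before that of Rarb and from 56 to 44 bases before that of Bco1. It lay on the gene's own strand in Rarb and on the opposite strand in Cyp26a1 and Bco1. A match of letters is not a bound site, and no binding was measured here. The Bco1 repeat has 1 base between its half-sites, where those of Cyp26a1 and Rarb have 5. It is not taken here for a retinoic acid response element. In the RefSeq annotation Cyp26c1 and Cyp26a1 are neighbours on chromosome 19 with 0 protein-coding genes between them, and 3 (Myof, Cep55 and Ffar4) lie between Cyp26a1 and Rbp4.

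Levels between genes can be compared in TPM. Over the 6 livers Ttr was the most abundant of the 9 (mean 12157 TPM), followed by Rbp4 (5039 TPM), Aldh1a1 (812 TPM), Dhrs3 (169 TPM), Cyp26a1 (90.2 TPM), Rdh16 (53.9 TPM), Rdh10 (16.4 TPM), Cyp26b1 (3.73 TPM) and Bco1 (3.44 TPM). The ranges of the first 4 did not overlap from one gene to the next, nor did those of Rdh16 and Rdh10. Dhrs3 and Cyp26a1 overlapped, with Cyp26a1 above Dhrs3 in WT 2 at 264 against 241 TPM. Cyp26a1 and Rdh16 also overlapped, and Cyp26a1 was the higher in 2 of 6 livers. Cyp26b1 and Bco1 could not be ordered, Cyp26b1 being the higher in WT 2 alone.

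Calls were also counted over the wider pathway. Of 76 other genes on 5 retinoid lists, 59 were tested, 6 rose, 8 fell and 45 were not called. That is 14 of 59, beside 15.4% of all tested genes called; 7.31% of all were called higher and 8.07% lower. The median log2 fold change was -0.24 for the 9 and -0.24 for the 59. With a term for Y-linked reads 2 were called, Lrat and Ppard, where 1.40% of all genes were, and the same count, 2, came from the 4 libraries with such reads alone (1.05% of all genes). Without WT 2 the count was 5, beside 3.69% of all genes. A list that the authors' deposited table annotates to the KEGG term for retinol metabolism, without the 9, gave 3 higher and 4 lower of 68 tested. That is 7 of 68, beside 15.4% of all tested genes.

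On the list of retinyl ester storage and hydrolysis 4 of 10 tested genes were called, beside 15.4% of all tested genes. Lrat, which esterifies retinol in stellate cells, had 19.9, 40.8 and 21.7 CPM in the WT livers against 3.33, 3.16 and 3.58 CPM in the iKO livers. The groups did not overlap, and the 3 iKO livers were nearly equal (log2 fold change -3.03, SE 0.29, adjusted p = 0.000678). Among enzymes that release retinol or fatty acids from stored lipid, Pnpla2, the adipose triglyceride lipase, rose from 63.9 ± 3.28 to 188 ± 27.6 CPM (adjusted p = 0.00138). Lipa, the lysosomal acid lipase, fell from 292 ± 37.0 to 146 ± 25.2 CPM (adjusted p = 0.0144), a call that ended without WT 2 (0.0564) or iKO 3 (0.0517). Pnpla3, a retinyl palmitate hydrolase, fell from 13.5 ± 9.45 to 1.49 ± 0.644 CPM (adjusted p = 0.0401). Its call ended in 12 of 17 alternatives, among them leaving out WT 2 (0.14), WT 3 (0.0806) or iKO 1, iKO 2 or iKO 3 (up to 0.138). WT 1 held 3.29 CPM of it against 15.5 and 21.9 CPM in WT 2 and WT 3, and with the Y-linked term its log2 fold change went from -3.19 to -1.15 (adjusted p = 0.266). Of the 10 tested members of this list 1 rose and 3 fell, and the other 6, among them Dgat1 and Lipe, were not called.

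Uptake and binding genes gave 0 calls by edgeR among 7 tested, beside 15.4% of all genes, and 1 at an unadjusted p under 0.05, beside 33.1%. The count was 1 by DESeq2 (19.4% of all genes), 0 by limma-voom (14.5%) and 2 by limma on log2(FPKM + 1) (10.3%). The gene at the unadjusted mark, and the 1 DESeq2 called, was Stra6l, the receptor by which liver takes up circulating retinol, with 223, 245 and 268 CPM in the WT livers against 198, 148 and 135 CPM in the iKO livers (log2 fold change -0.61, SE 0.20, adjusted p = 0.0675). Its groups did not overlap.

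Of 25 other oxidoreductases 2 rose and 2 fell, a share close to the 15.4% called over all genes. Rdh5, which oxidises cis-retinols, rose from 15.6 ± 2.80 to 29.2 ± 4.76 CPM (adjusted p = 0.0153), and Rdh13, a mitochondrial member of the family, from 4.86 ± 0.878 to 9.57 ± 2.32 CPM (adjusted p = 0.028). Dhrs9 fell from 5.82 ± 2.19 to 1.42 ± 0.533 CPM (adjusted p = 0.0103). The calls of Rdh5 and Dhrs9 ended without WT 2 (adjusted p = 0.0713 and 0.0512), and that of Rdh13 when WT 2 (0.108), WT 3 (0.0799), iKO 2 (0.0568) or iKO 3 (0.0846) was left out. Adh1, the abundant cytosolic alcohol dehydrogenase, was at 2586 ± 550.5 and 2503 ± 365 CPM (adjusted p = 0.919), and Retsat, which saturates retinol, at 215 ± 34.4 and 145 ± 60.1 CPM (adjusted p = 0.212).

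Among 9 receptors 2 fell and 0 rose, beside 15.4% of all tested genes called. Ppard, a fatty acid receptor to which retinoic acid can be delivered, fell from 44.0 ± 2.88 to 11.5 ± 2.69 CPM and Rxrg from 8.28 ± 1.51 to 2.85 ± 0.716 CPM (adjusted p = 0.000587 and 0.00722). Rara and Rxra were not called (adjusted p = 0.92 and 0.96). Rara lay between 26.8 and 28.1 CPM in WT livers and 25.8 and 28.2 CPM in iKO livers. Rxra was at 428 ± 37.7 and 434 ± 77.8 CPM. The 95% intervals of the log2 fold change were -0.33 to 0.28 for Rara and -0.45 to 0.49 for Rxra. Of 11 tested genes that respond to retinoic acid, 3 rose and 2 fell, again beside 15.4% of all tested genes called. Their median log2 fold change was 0.069. Pck1 rose from 891 ± 151 to 3535 ± 586 CPM, Rarres1 from 44.2 ± 23.1 to 101 ± 18.9 CPM and Rarres2 from 377 ± 67.0 to 671 ± 122 CPM, while Nrip1 fell from 15.7 ± 2.77 to 7.59 ± 0.998 CPM. Their adjusted p-values were 0.00218, 0.047, 0.0411 and 0.00995, and Lrat was the other fall. The Nrip1 call ended without WT 2 (0.0637), that of Rarres1 without any 1 library but WT 1 (up to 0.155, without WT 2) and that of Rarres2 without any 1 but iKO 2 (up to 0.16, without WT 2). After correction for transcript length Rarres2 was at 0.39 on the log2 scale (adjusted p = 0.21), where it had been at 0.83. Pck1 also responds to glucocorticoid and fasting, so the list does not read retinoic acid alone.

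**Figure D4:**
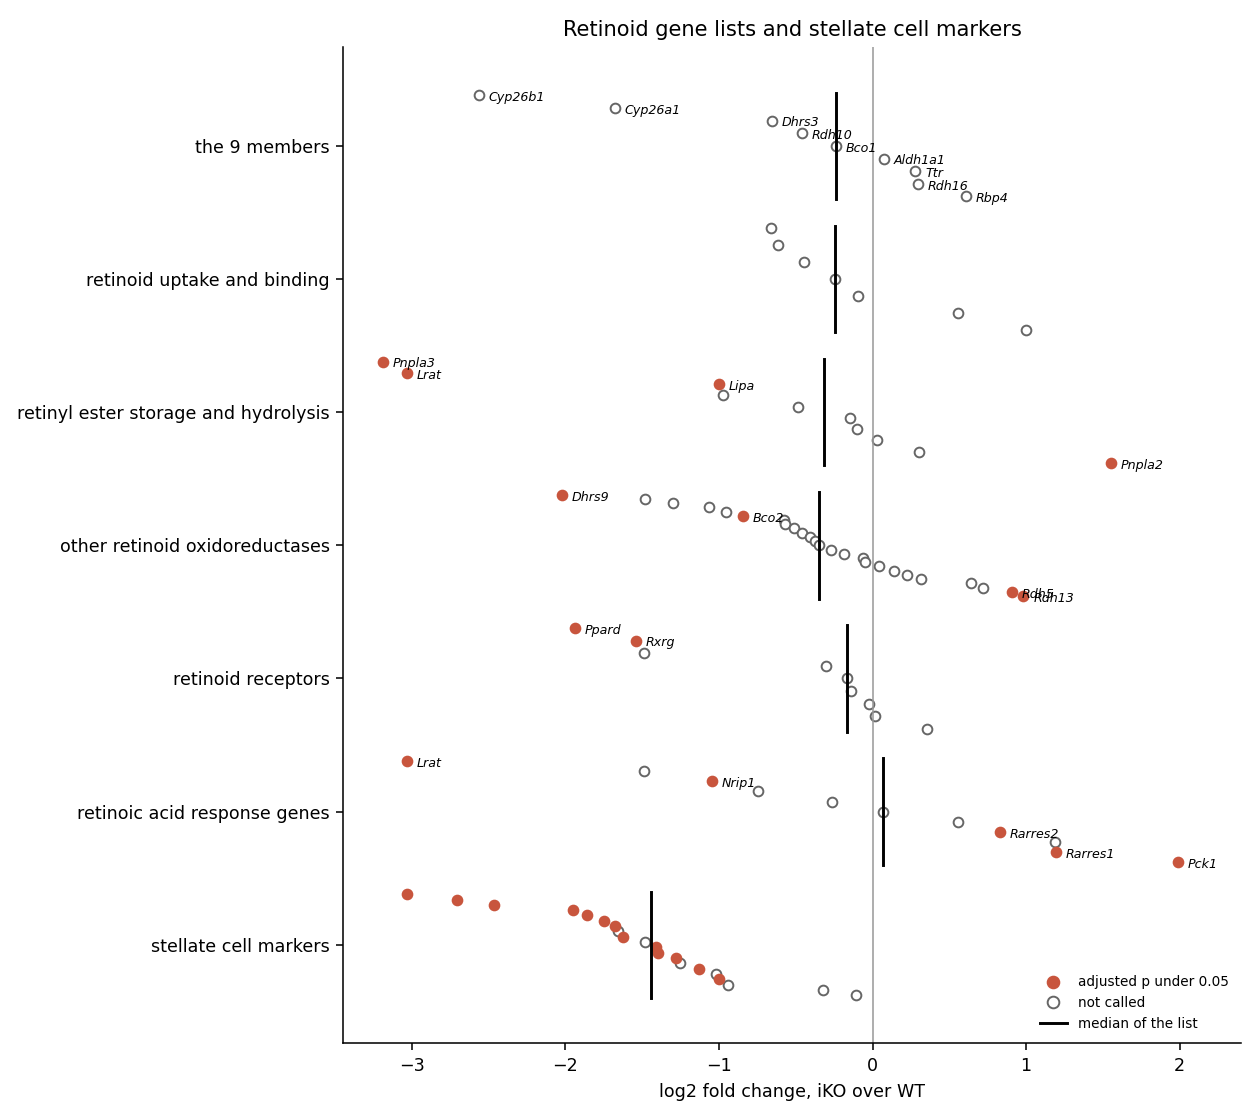
Log2 fold changes, iKO over WT (horizontal axis), of the tested genes of the 9 members, the 5 retinoid lists and the stellate cell markers (rows); filled points were called, open points were not, and bars are list medians. The 9 members hold no filled point, while the storage list spans Pnpla3 at -3.19, Lrat at -3.03 and Pnpla2 at 1.55.

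Cyp26b1 and Lrat belong to stellate cells in liver, and markers of that cell moved with the groups. Of 20 stellate cell markers, Lrat among them, 13 were called lower and 0 higher, where 8.07% of all tested genes were called lower. Their median log2 fold change was -1.44. With the term for Y-linked reads, which rests on WT 1 for the WT side, their median was -0.96. Summed, they gave 622, 975 and 1108 CPM in the WT livers against 396, 313 and 335 CPM in the iKO livers, with 0 of the 20 at 0 in any library. Cyp26b1 per 1000 CPM of these markers was 10.6, 35.6 and 7.81 CPM in the WT livers against 2.19, 20.6 and 3.10 CPM in the iKO livers. The groups overlapped on that scale, with WT 2 and iKO 2 each the highest of its group. Kupffer cell markers summed to 492 to 939 CPM in WT livers and 372 to 454 CPM in iKO livers (6 of 12 lower), and sinusoidal endothelial markers to 255 to 405 and 91.7 to 219 CPM (3 of 12 lower). With the Y-linked term the median log2 fold changes of the Kupffer and endothelial lists, -0.86 and -0.86, became -0.28 and -0.41. Cholangiocyte markers, at 133 to 229 and 78.9 to 433 CPM, overlapped. The part of stellate cells in the levels of Cyp26b1 and Lrat was not tested.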

How the data were processed

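RNA-seq of 6 livers, 3 WT and 3 labelled iKO, was read from 1 deposited table. The submitters' processing notes name RSEM 1.2.12, Bowtie2 2.2.5 and HISAT2 2.0.4 and the mouse build mm9, with no strand setting. The authors deposited RSEM expected counts, FPKM and TPM per library; FPKM and TPM are scaled for transcript length and depth. Rounded expected counts entered edgeR 4.0.16 in R 4.3.3, with the filterByExpr filter, TMM factors (0.780 to 1.18) and the robust quasi-likelihood test. P-values were adjusted by Benjamini-Hochberg over 13160 genes and read at 0.05. Each SE is the fold change (log2) divided by the root of its F statistic. RSEM can divide reads between near-identical genes; counts that are not whole (tolerance 0.001) mark this. At these depths counting error is small except near 1 CPM, where precision is low.

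Libraries of a group differed by more than sampling noise. The members, lists and alternatives were chosen with earlier results of these data known. The rule names all members, up to 4 called genes of each retinoid list, and 8 fixed pathway genes, 1 of which is not reported here; genes most like a called member were to be named, and with 0 called members none was. Genes named outside it (Stra6l, Cyp26c1, Aldh1a7, Rarres1 or Rarres2, Dgat1, Lipe) were chosen after their values were seen. Alternatives were upper-quartile or RLE factors, no filter, DESeq2 1.42.0, limma-voom, limma (3.58.1) on FPKM as log2 with pseudocount 1 or 0.1, the replicate numbers as a block, leaving out 1 library at a time, a term for Y-linked reads (Ddx3y and Kdm5d over 10 counts together), the 4 libraries with such reads alone, and a lowess correction (span 0.3) for effective length. On simulated data for iKO against WT (12991 genes) edgeR recovered 44 of 100 genes changed 2-fold and 89 of 100 changed 4-fold, with 13 false among 146 calls.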

Additional observations from a re-analysis of the deposited data

How the results depend on the processing

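Of the 9 retinoid genes, 7 kept their direction under all 17 alternatives, Ttr and Aldh1a1 being the exceptions. The alternatives draw on the same livers and are not independent, and the share of all genes that kept their direction was not counted. The number called was 0 with all livers, 1 with DESeq2 (Rbp4), 1 each with limma on log2(FPKM + 1) and log2(FPKM + 0.1) (Dhrs3), 2 with upper-quartile factors (Rdh10 and Dhrs3), 1 with the replicate block (Cyp26b1), and 0 to 1 when a library was left out. Other retinoid genes called numbered 14, or 2 with the term for Y-linked reads, 2 in the libraries with such reads alone, and 5 to 15 when a library was left out. Over all genes the count of 2024 became 184 with that term, 143 in those libraries alone, and 491 (without WT 2) to 1840 when a library was left out; the split of calls went from 962 higher and 1062 lower to 421 and 931 with limma on log2(FPKM + 1). Directions turned only for genes that were not called. Ttr went to -0.21 with the length correction, -0.019 on both FPKM scales, and ran from -0.23 to 0.53 when a library was left out. Aldh1a1 went to -0.21 with the Y-linked term, -0.20 in those libraries alone and -0.13 on both FPKM scales, and from -0.035 to 0.30 when a library was left out. Adh1 went to 0.21, to 0.22 in those libraries alone, and from -0.17 to 0.14; Rara to 0.052 with the length correction and from -0.054 to 0.036; Rxra to -0.18 on both FPKM scales, -0.044 with upper-quartile factors, and from -0.12 to 0.17. The cause was not tested. Same-numbered livers deviated together with r of 0.21, 0.22 and 0.046 over 13160 genes, so the numbers were not taken to pair them; with the replicate block 1710 genes were called in all, and 12 of the other retinoid genes. Lrat and Ppard stayed called under all 17 alternatives (adjusted p up to 0.00911 and 0.0113). The simulation held 100 genes changed 2-fold and 100 changed 4-fold among 12991, and gave 146 calls where these data gave 2024. Adjustment was thus stricter there, and its 44 of 100 recovered at 2-fold does not carry over to these data. How often a change of the size of Dhrs3 or Rdh10 is missed with 3 livers a group is not known from it.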
